A study of Homo sapiens with 3 samples.

Results

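The mitochondrial ribosomal protein genes were read in OCI-AML2 R50, an acute myeloid leukaemia cell line, with and without romidepsin. Members were all gene names made of MRPL or MRPS, a number and at most 1 letter from A to C, with rows of 1 name summed. This gave 74 of the 25247 gene symbols, of which 47 carry MRPL (large subunit, by name) and 27 carry MRPS (small subunit, by name). The romidepsin group held 2 RNA sequencing libraries of R50 cells exposed for 18 h to romidepsin, a cyclic peptide that inhibits class I histone deacetylases. The control was 1 library of R50 cells with no romidepsin. Per the labels' protocols, R50 cells were kept in 50 µM Ara-C (cytarabine, a nucleoside analogue used against leukaemia) with 15% serum, which both groups therefore share. All libraries come from R50 cells of 1 cell line. No label gives the romidepsin dose or a time for the control, or says whether the pair of romidepsin libraries came from separate cultures. The p-values thus rest on how far these libraries differ, which may be technical.

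The mitochondrial ribosome translates the few messages of mitochondrial DNA, which code for subunits of the respiratory chain and ATP synthase. Its ribosomal RNAs come from mitochondrial DNA, but all its proteins are coded in the nucleus, made on cytosolic ribosomes and imported, and nuclear factors such as NRF1, GABPA (an ETS factor) and YY1 are known to bind promoters of such genes. Some of its proteins have a bacterial counterpart, whose number the symbol keeps, and the others are found only in mitochondria. Leukaemia cells, among them AML cells, are known to depend on mitochondrial translation.

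Promoters of 7 members are shown because they stand at the ends of the response or hold several motifs. They are the 3 members furthest below the control, the 2 members called higher, and the next 2 lowest members with a YY1 match inside the window. Each line gives the 150 bases before the RefSeq start in GRCh38.p14, read 5′ to 3′ on the gene's strand, and the capitals mark motif matches on either strand.
MRPS26 (chr20:3045902-3046051, plus strand): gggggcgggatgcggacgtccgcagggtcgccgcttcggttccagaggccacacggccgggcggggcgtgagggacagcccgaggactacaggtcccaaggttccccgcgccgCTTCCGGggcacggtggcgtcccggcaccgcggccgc
MRPS2 (chr9:135500532-135500681, plus strand): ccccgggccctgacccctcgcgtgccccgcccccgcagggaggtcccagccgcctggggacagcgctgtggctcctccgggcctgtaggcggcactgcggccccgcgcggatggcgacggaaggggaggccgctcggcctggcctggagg
MRPL3 (chr3:131502972-131503121, minus strand): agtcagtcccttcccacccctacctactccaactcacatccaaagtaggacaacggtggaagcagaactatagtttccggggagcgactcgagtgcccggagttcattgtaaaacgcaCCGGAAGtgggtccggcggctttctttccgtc
MRPL40 (chr22:19432395-19432544, plus strand): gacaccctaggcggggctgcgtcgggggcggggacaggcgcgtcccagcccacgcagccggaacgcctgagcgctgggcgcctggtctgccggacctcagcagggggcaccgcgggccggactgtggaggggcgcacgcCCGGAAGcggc
MRPL52 (chr14:22829737-22829886, plus strand): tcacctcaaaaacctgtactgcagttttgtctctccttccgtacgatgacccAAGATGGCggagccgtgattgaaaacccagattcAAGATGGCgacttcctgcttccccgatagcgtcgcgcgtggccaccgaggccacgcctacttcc
MRPL36 (chr5:1799838-1799987, minus strand): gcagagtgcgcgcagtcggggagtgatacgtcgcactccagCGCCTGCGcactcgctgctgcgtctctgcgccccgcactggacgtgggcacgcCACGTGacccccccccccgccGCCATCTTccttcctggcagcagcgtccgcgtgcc
MRPL47 (chr3:179604639-179604788, minus strand): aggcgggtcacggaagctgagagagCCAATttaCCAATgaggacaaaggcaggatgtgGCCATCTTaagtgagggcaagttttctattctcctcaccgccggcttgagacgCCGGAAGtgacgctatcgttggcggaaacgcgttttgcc
In these windows MRPS26, MRPL3 and MRPL40 held 1 ETS match each, with first bases at -37, -32 and -11 from the start. MRPS2 held none of the motifs looked for. MRPL52 held 2 YY1 matches, at -98 and -64. MRPL36 held an NRF1 match at -109, an E-box at -56 and a YY1 match at -35. MRPL47 held 2 CCAAT boxes at -125 and -117, a YY1 match at -92 and an ETS match at -39. The same ETS letters thus lay close to the start of 2 of the lowest members and of the member with the highest change. MRPL52, the other member called higher, also held an ETS match, but not wholly inside the printed window. That match was found in the wider span of 250 bases before to 50 bases after the start. Of the 27 members with an ETS match in that wider span, 25 were called lower.

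Nearly all mitochondrial ribosomal protein genes were lower with romidepsin. By limma with Benjamini-Hochberg adjustment over all 11708 tested genes (threshold 0.05), 69 of 74 members fell and 2 rose, against 41.8% of all tested genes called lower and 34.7% called higher. In the large subunit 43 of 47 fell and 2 rose, and in the small subunit 26 of 27 fell and none rose. The median log2 fold change was -0.58 over all members, -0.54 in the large subunit and -0.65 in the small subunit, against -0.05 over all tested genes. All changes are differences of log2(FPKM + 1), where FPKM is the number of fragments scaled to gene length and library size. All 74 members were tested, and each reached at least 15.4 FPKM in the control, so none passed the filter on low values through the romidepsin libraries alone.

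The fall was of moderate size in most members. Larger falls were rare. On the log2(FPKM + 1) scale, 4 of 74 members (MRPS26, MRPS2, MRPL3 and MRPL15) were 2-fold or more under the control in each romidepsin library. The same held for 3.08% of all tested genes and for 254 of the 4935 tested genes within the members' range of control FPKM. MRPL54 lay just outside this limit: its FPKM were 2.02- and 2.26-fold under the control, and with a pseudocount of 0.1 it made 5 such members. The log2 fold changes ran from -1.34 to 0.18, and 47 members lay between -0.9 and -0.3. Their SD was 0.32, against 0.52 among the tested genes within the members' range of control FPKM. The romidepsin libraries lay within 0.1 of each other on the log2 scale for 66 members, and the widest gap of the pair was 0.21, at MRPS33. In 71 members both romidepsin libraries were below the control, and in the other 3 both were above it. Over all 11708 tested genes, both were below it in 6018 and above it in 5130. With 1 control, groups that do not overlap were thus usual among all tested genes. Of 4935 tested genes within the members' control range, 61.9% were called lower and the median was -0.25. This range is set by the control value that also enters each change, so the share cannot be read as a trait of well-expressed genes. With genes filtered on a mean of at least 5 FPKM instead, 49.1% were called lower.

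**Figure D1:**
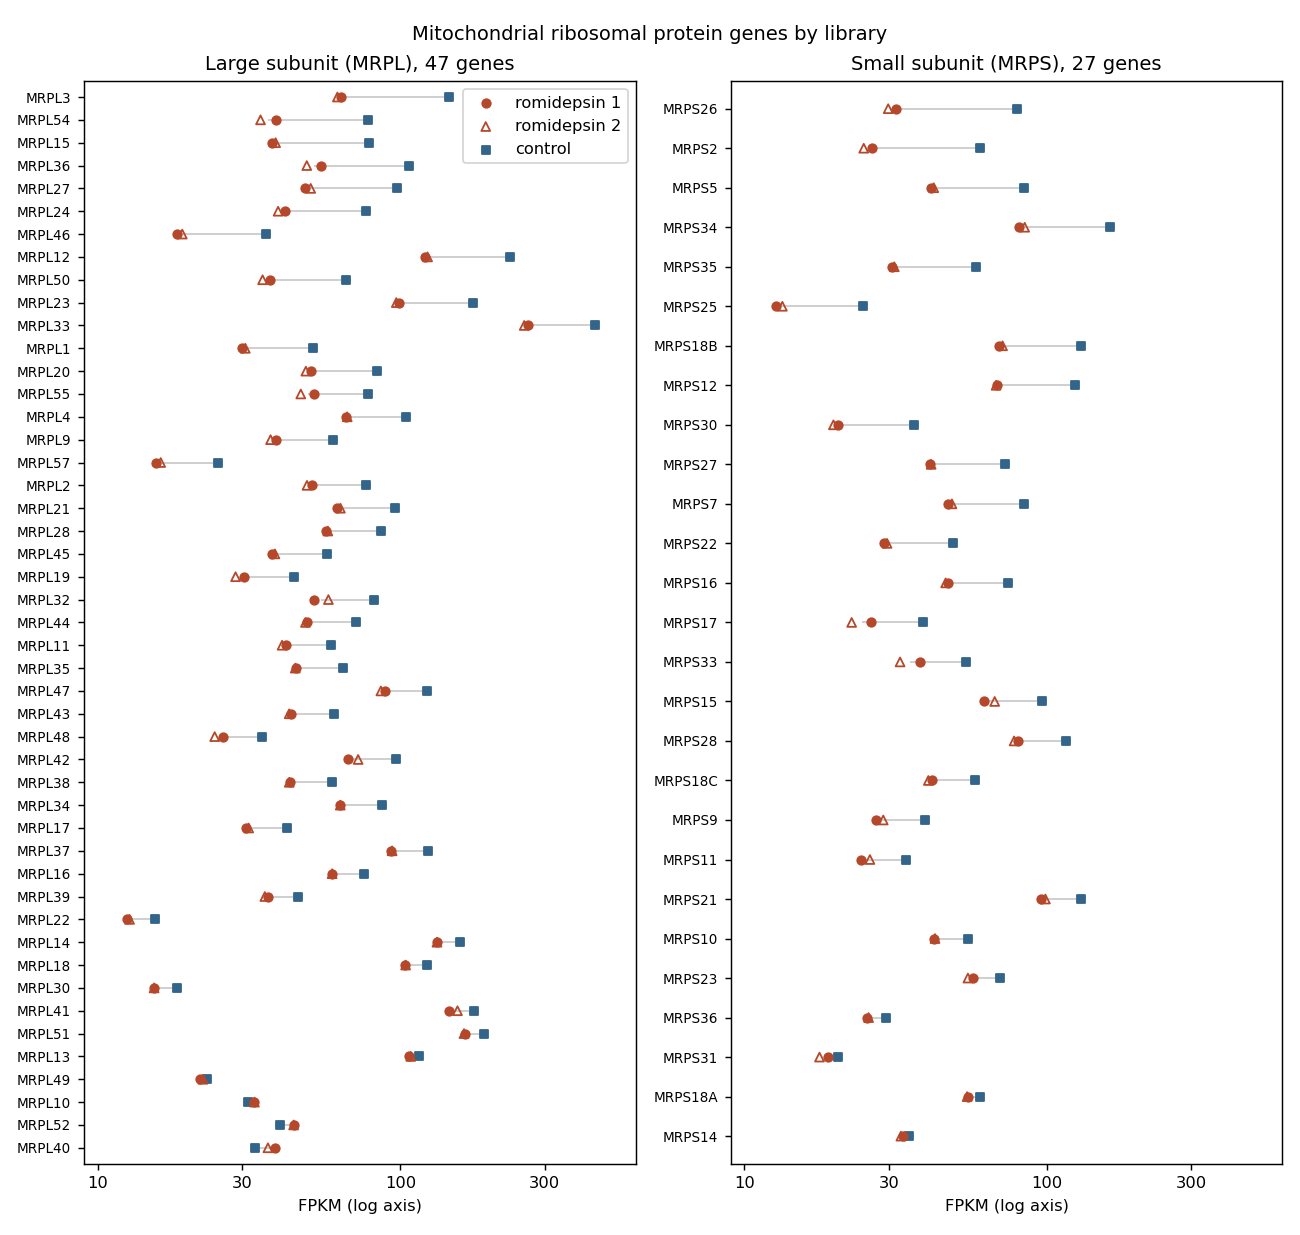
FPKM of the mitochondrial ribosomal protein genes in each library, on a log axis, by subunit. Each member is drawn with its romidepsin libraries against the 1 control library. In 71 of 74 members both romidepsin libraries lie below the control. The members' log2 fold changes run from -1.34 to 0.18, and with libraries scaled to the same sum 63 of 74 are below 0.

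Of the 6 lowest members of the large subunit, 5 have a bacterial counterpart, as do 28 of all 47 members of this subunit. This division was made after the values were seen. MRPL3, a core protein beside the peptidyl transferase centre and a gene of recessive cardiomyopathy, had 63.5 and 61.9 FPKM in the romidepsin libraries, against 145 FPKM in the control. MRPL15, another core protein with a bacterial counterpart, had 37.6 and 38.7 FPKM in the romidepsin libraries, against 79.0 FPKM in the control. In both genes each romidepsin library was under the control by at least 2-fold and the pair lay close together. The log2 fold change was -1.19 ± 0.04 for MRPL3 (SE, limma, adjusted p = 3.9e-07) and -1.03 ± 0.04 for MRPL15 (adjusted p = 8.89e-07).

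MRPL54, a protein found only in mitochondrial ribosomes, had 38.7 and 34.5 FPKM in the romidepsin libraries, against 78.1 FPKM in the control. MRPL36, a small protein with a bacterial counterpart, had 54.8 and 49.0 FPKM in the romidepsin libraries, against 107 FPKM in the control. These 2 members had a wider gap between the romidepsin libraries than MRPL3 and MRPL15, and the groups did not overlap, as in every member. MRPL27 followed with 48.3 and 50.5 FPKM in the romidepsin libraries, against 97.4 FPKM in the control. MRPL24 had 41.4 and 39.4 FPKM in the romidepsin libraries, against 77.0 FPKM in the control. Both have bacterial counterparts, and all of these members fell, with log2 fold changes of -1.07 (MRPL54), -1.03 (MRPL36), -0.96 (MRPL27) and -0.91 (MRPL24).

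The most abundant members fell too. MRPL33, the member with the highest level, had 265 and 257 FPKM in the romidepsin libraries, against 439 FPKM in the control, a log2 fold change of -0.75 (limma, adjusted p = 1.62e-06). MRPL12, the stalk protein that recruits translation factors and is also known to bind the mitochondrial RNA polymerase, had 121 and 123 FPKM in the romidepsin libraries, against 230 FPKM in the control. Its log2 fold change was -0.91 ± 0.03 (SE, limma, adjusted p = 7.16e-07). MRPL10, the protein that holds MRPL12 on the ribosome, did not share that fall. MRPL10 had 32.7 and 32.9 FPKM in the romidepsin libraries, against 31.3 FPKM in the control, a log2 fold change of 0.07 that was not called (limma, adjusted p = 0.173), though it was called higher under 3 other scalings. MRPL51, which had the third highest control level in this subunit, had 164 and 162 FPKM in the romidepsin libraries, against 189 FPKM in the control. It fell by 0.22 on the log2 scale, and its change was 0.02 with the libraries scaled to the same sum.

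The 2 members called higher, MRPL40 and MRPL52, are both proteins with no bacterial counterpart. MRPL40 had 38.5 and 36.5 FPKM in the romidepsin libraries, against 33.0 FPKM in the control. MRPL52 had 44.6 and 44.4 FPKM in the romidepsin libraries, against 40.1 FPKM in the control. In both genes, as in every member, the groups did not overlap, but the difference was small. The log2 fold changes were 0.18 and 0.15, with limma adjusted p of 0.011 and 0.0112. Over the alternative settings the limma adjusted p ran from 0.000376 to 0.0912 for MRPL40 and from 0.000228 to 0.055 for MRPL52, and neither was called without the trend in limma. MRPL49, another member with no bacterial counterpart, had 21.7 and 22.3 FPKM in the romidepsin libraries, against 23.0 FPKM in the control, and was not called (limma, adjusted p = 0.28). MRPL44, a protein with a ribonuclease-like fold and a gene of recessive cardiomyopathy, had 49.0 and 48.5 FPKM in the romidepsin libraries, against 71.3 FPKM in the control. It fell by 0.54 on the log2 scale, the median of the subunit.

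In the small subunit the lowest member was MRPS26, a protein found only in mitochondrial ribosomes. MRPS26 had 31.6 and 29.9 FPKM in the romidepsin libraries, against 79.4 FPKM in the control, a log2 fold change of -1.34 ± 0.05 (SE, limma, adjusted p = 5.93e-07). MRPS2, which has a bacterial counterpart and is a gene of recessive mitochondrial disease, had 26.3 and 24.8 FPKM in the romidepsin libraries, against 60.2 FPKM in the control. Its log2 fold change was -1.20 ± 0.05 (SE, limma, adjusted p = 1.04e-06). MRPS26 and MRPS2 were the lowest of all 74 members, with both romidepsin libraries at least 2-fold under the control.

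MRPS5, another member with a bacterial counterpart, had 41.5 and 42.2 FPKM in the romidepsin libraries, against 83.9 FPKM in the control. MRPS34, a mitochondria-specific protein, a disease gene and the small subunit member with the highest control level, had 80.6 and 84.4 FPKM in the romidepsin libraries, against 161 FPKM in the control. Both fell, with log2 fold changes of -0.99 (MRPS5) and -0.96 (MRPS34). MRPS35, mitochondria-specific, had 30.6 and 31.3 FPKM in the romidepsin libraries, against 58.5 FPKM in the control. MRPS25, also mitochondria-specific and a disease gene, had 12.7 and 13.3 FPKM in the romidepsin libraries, against 24.6 FPKM in the control. Their log2 fold changes were -0.90 (MRPS35) and -0.87 (MRPS25), and, as in every member, the groups did not overlap in these genes.

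The MRPS18 family are 3 paralogues of 1 bacterial protein, and they fell by unequal amounts. MRPS18B had 69.5 and 71.3 FPKM in the romidepsin libraries, against 129 FPKM in the control, a log2 fold change of -0.87. MRPS18C had 41.5 and 40.5 FPKM in the romidepsin libraries, against 58.0 FPKM in the control, a log2 fold change of -0.49. MRPS18A, whose protein lies in the large subunit, had 55.0 and 54.5 FPKM in the romidepsin libraries, against 60.1 FPKM in the control. Its log2 fold change was -0.13 (limma, adjusted p = 0.0138), and it was 0.10 with the libraries scaled to the same sum. MRPS18B takes up 7 rows in the files, of which 6 are listed at 0 in every library, so its value is that of 1 row.

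The members that moved least in the small subunit were MRPS14, MRPS18A, MRPS31 and MRPS36. MRPS14, which has a bacterial counterpart and is a disease gene, had 33.5 and 32.9 FPKM in the romidepsin libraries, against 35.1 FPKM in the control, and was not called (limma, adjusted p = 0.131). MRPS31 had 18.9 and 17.7 FPKM in the romidepsin libraries, against 20.4 FPKM in the control, a log2 fold change of -0.15. MRPS36, a protein now known as a part of the alpha-ketoglutarate dehydrogenase complex, had 25.4 and 25.7 FPKM in the romidepsin libraries, against 29.3 FPKM in the control, a log2 fold change of -0.19. MRPS31 and MRPS36 were called lower (limma, adjusted p = 0.0442 and 0.00529), and with the libraries scaled to the same sum their changes were 0.08 and 0.04. MRPS21, a small protein with a bacterial counterpart and a control level close to that of MRPS18B, had 95.6 and 98.8 FPKM in the romidepsin libraries, against 129 FPKM in the control, and fell by 0.41 on the log2 scale.

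Among 12 members listed as genes of recessive mitochondrial disease in people, 11 fell (91.7%, near the 93.2% of all members). Their median log2 fold change was -0.76, against -0.58 over all members. This list may not be complete. Those not described above were MRPS7, MRPS16, MRPS22, MRPS23 and MRPS28, whose log2 fold changes were -0.80, -0.66, -0.73, -0.32 and -0.55; MRPS23 was at -0.08 and not called with the libraries scaled to the same sum (limma, adjusted p = 0.108, the highest over the alternatives, whose lowest was 9.54e-05). Of the 43 members whose symbol keeps the number of a bacterial ribosomal protein, 41 fell and none rose, with a median of -0.59. Of the 31 others, 28 fell and 2 rose, with a median of -0.54. Both counts stand beside the 69 of all 74 members that fell (93.2%). The division by bacterial counterpart was made after the values were seen. In the large subunit the median was -0.60 for the 28 members with a counterpart and -0.47 for the 19 without; in the small subunit it was -0.57 for the 15 with a counterpart and -0.76 for the 12 without. The order of the 2 classes was thus opposite in the 2 subunits, a difference that was not tested.

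Summed over its members, the small subunit was further below the control than the large one. The large subunit summed to 2872 and 2858 FPKM in the romidepsin libraries, against 4237 FPKM in the control, 1.48-fold lower. The small subunit summed to 1172 and 1173 FPKM in the romidepsin libraries, against 1873 FPKM in the control, 1.60-fold lower. The ratio of the large to the small sum was therefore 2.45 and 2.44 in the romidepsin libraries, against 2.26 in the control, a log2 change of 0.11. The median fold changes of the subunits differed by 0.12 in the same direction. The sums and their ratio were not tested; with 2 libraries against 1, an exact permutation p cannot go below 0.333. Placing MRPS30 and MRPS18A, whose proteins lie in the large subunit, with MRPL genes and leaving out MRPS36 gave a log2 change of the ratio of 0.14.

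**Figure D2:**
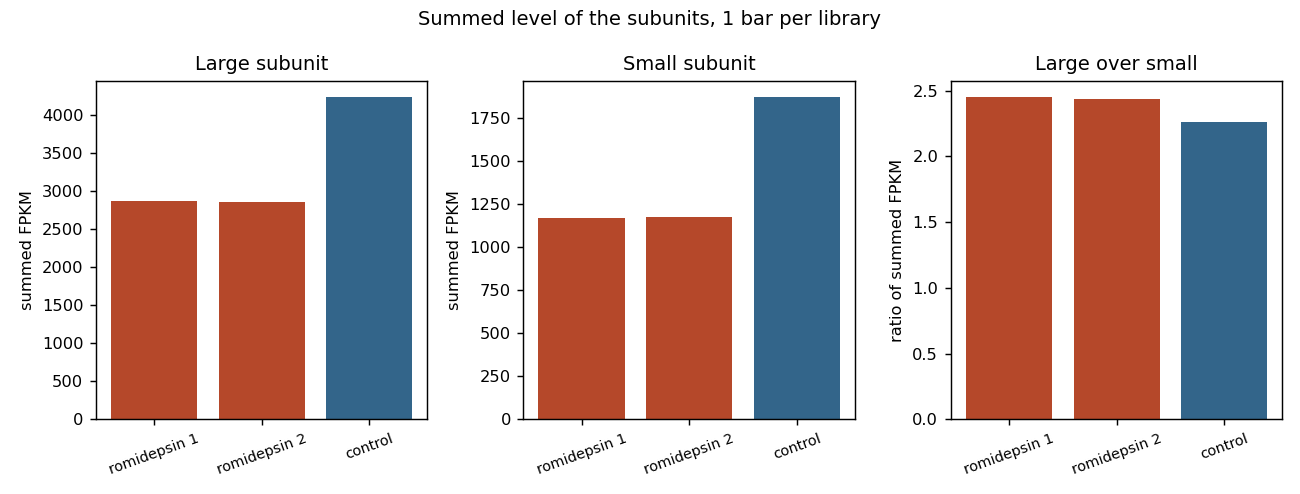
Summed FPKM of the large and small subunit genes in each library, with the romidepsin libraries left of the control. The large subunit sums are 2872 and 2858 with romidepsin against 4237 in the control, and the small subunit sums are 1172 and 1173 against 1873.

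All members together took 0.777% and 0.778% of the summed FPKM of named genes in the romidepsin libraries, against 0.995% in the control. The middle large subunit gene stood at 48.3 and 46.9 FPKM in the romidepsin libraries, against 77.0 FPKM in the control, and the middle small subunit gene at 41.0 and 40.5 FPKM, against 60.1 FPKM. The order of levels was largely kept, since 7 of the 10 highest members were the same in both groups. The highest control level (MRPL33) was 28.5 times the lowest (MRPL22, 15.4 FPKM). When members were divided by control level, the median log2 fold change was -0.59 in the 25 highest, -0.65 in the middle 24 and -0.43 in the 25 lowest.

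**Figure D3:**
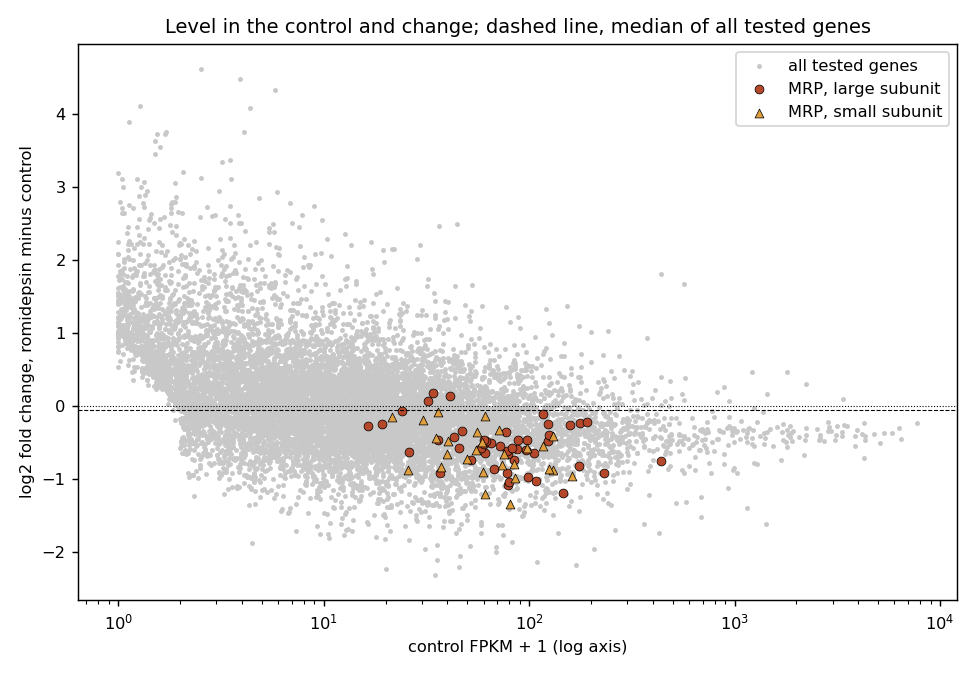
Log2 fold change of each member against its control FPKM on a log axis, by subunit. Members lie below 0 over the whole range from 15.4 to 439 FPKM, with MRPL40, MRPL52 and MRPL10 above 0; with libraries scaled to the same sum, 63 of 74 lie below 0.

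Most genes of cytosolic ribosomal proteins were lower too. Of the 72 tested, 68 were called lower (94.4%, against 41.8% of all tested genes) and 1 higher. The median log2 fold change was -0.39, against -0.58 over the mitochondrial members. The 2 lists differ in level, with a median control FPKM of 1759 in the cytosolic genes and 71.9 in the members. No cytosolic ribosomal protein gene was 2-fold lower in both romidepsin libraries. Their changes ran from -1.01 to 0.20, so the 2 lists overlap, and the difference between the medians was not tested. After quantile normalization the cytosolic median lay 0.04 below that of all tested genes, while the large and small mitochondrial medians lay 0.29 and 0.41 below it; the cytosolic median itself was -0.15 with the libraries scaled to the same sum and -0.09 after quantile normalization, where 49 of 72 cytosolic genes lay below 0, against 63 of 74 members.

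The other genes of mitochondrial translation were read from lists, whose counts stand beside the 41.8% of all tested genes called lower and the 61.9% of those within the members' control range. Of 6 mitochondrial ribosome proteins with other symbols, 5 fell, with a median of -0.53. The lowest were GADD45GIP1 with a log2 fold change of -0.65, ICT1, the ribosome's peptidyl-tRNA hydrolase, with -0.56, and CHCHD1 with -0.56. DAP3, a GTP-binding protein of the small subunit read from a row joined with the antisense gene ASH1L-AS1, had 86.2 and 84.6 FPKM in the romidepsin libraries, against 86.7 FPKM in the control, and was not called (limma, adjusted p = 0.623); that row was called higher with the libraries scaled to the same sum (0.22) and after quantile normalization (0.21).

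Among 17 translation factors, 13 fell and 2 rose, with a median of -0.47. TACO1, an activator of the translation of a cytochrome c oxidase subunit, had 13.05 and 13.49 FPKM in the romidepsin libraries, against 25.3 FPKM in the control. MTIF2, the initiation factor that brings the starting tRNA, had 16.2 and 15.7 FPKM in the romidepsin libraries, against 29.1 FPKM in the control. Both were well under the control, and GUF1, an elongation factor homologue, was close to them with a log2 fold change of -0.79. MTRF1L, a release factor, and MTFMT, which formylates the starting tRNA, rose by 0.42 and 0.27; MTRF1L, with 3.78 and 5.01 FPKM in the romidepsin libraries against 3.01 FPKM in the control, was not called without the filter on low values (limma, adjusted p = 0.217, in a range over the alternatives from 0.00938 to 0.322).

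Of 25 assembly factors, 20 fell and 1 rose, with a median of -0.46. MRM1, an rRNA methyltransferase, had 9.60 and 9.29 FPKM in the romidepsin libraries, against 31.7 FPKM in the control, a log2 fold change of -1.65 (limma, adjusted p = 4.49e-07), further below the control than any ribosomal protein member. RBFA, a small subunit assembly factor read from a row joined with another gene, and RPUSD4, a pseudouridine synthase, had log2 fold changes of -1.07 and -0.96. MPV17L2 had 25.6 and 27.6 FPKM in the romidepsin libraries, against 16.8 FPKM in the control, and rose by 0.63.

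Of 19 tested genes for charging mitochondrial tRNAs, 17 fell and none rose, with a median of -0.45. They comprise 16 aminoacyl-tRNA synthetases, of which 14 fell, and 3 subunits of the glutamyl-tRNA amidotransferase (QRSL1, GATB and GATC), all of which fell; VARS2 is listed at 0 in every library. The lowest were YARS2, WARS2 and SARS2, with log2 fold changes of -0.97, -0.90 and -0.88. Of 8 genes of mitochondrial DNA transcription and copying, 5 fell (62.5%, near the 61.9% of genes within the members' control range), with a median of -0.23. The helicase gene TWNK had 10.1 and 9.74 FPKM in the romidepsin libraries, against 26.3 FPKM in the control. TFB2M, a transcription initiation factor, had 46.6 and 46.4 FPKM in the romidepsin libraries, against 94.2 FPKM in the control. These were the lowest of the list, followed by the polymerase gene POLRMT with a log2 fold change of -0.57.

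Of 10 regulators of mitochondrial biogenesis, 8 fell and 1 rose, with a median of -0.39. The 3 with the greatest changes were MYC, PPRC1, a coactivator related to PGC-1, and PPARGC1A, which codes for PGC-1 alpha. MYC had 119 and 116 FPKM in the romidepsin libraries, against 362 FPKM in the control. PPRC1 had 6.51 and 6.03 FPKM in the romidepsin libraries, against 17.2 FPKM in the control. PPARGC1A rose, at 1.64 and 1.67 FPKM in the romidepsin libraries against 0.671 FPKM in the control, so it was tested only because the romidepsin libraries reached 1 FPKM. The genes of the factors named for these promoters fell too, with log2 fold changes of -0.62 (GABPA), -0.36 (YY1, read from a row joined with a microRNA gene) and -0.22 (NRF1). With the libraries scaled to the same sum, 5 of these 10 regulators were called lower and 2 higher, with NRF1 at -0.01 and not called, and 3 of the 8 transcription and copying genes were called lower, with a list median of 0.00107. PPARGC1A was not called after quantile normalization (limma, adjusted p = 0.118, the highest over the alternatives, whose lowest was 0.000796). Genes of the mitochondrial DNA itself are not analysed here.

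**Figure D4:**
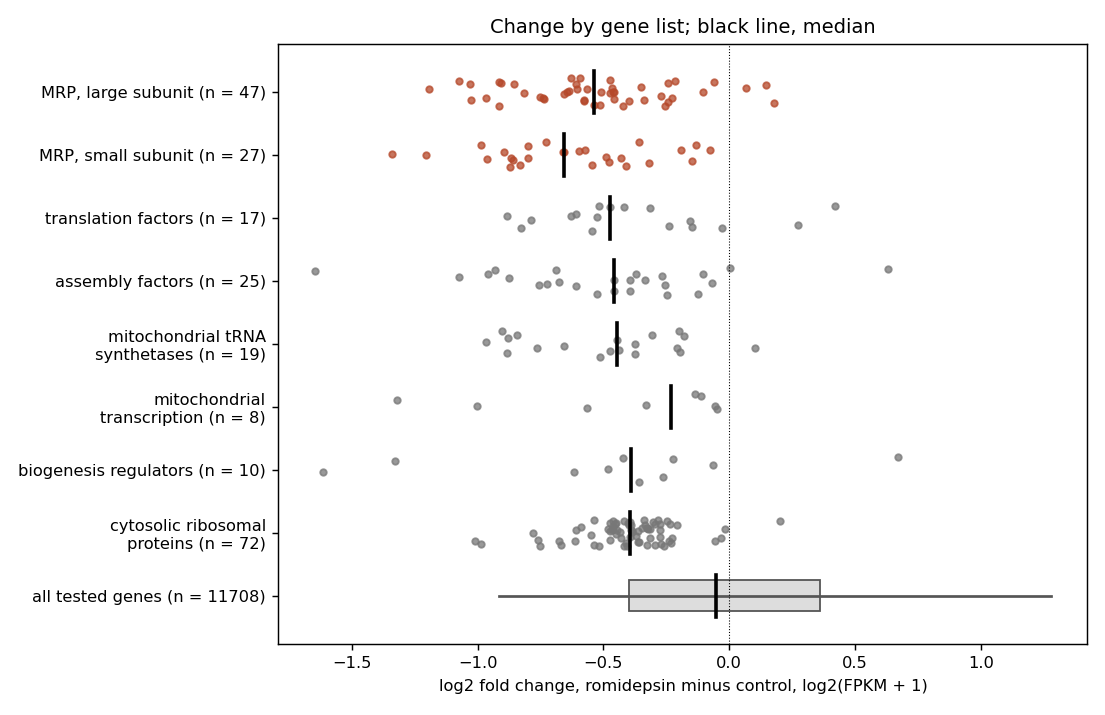
Log2 fold change of every tested gene in the mitochondrial ribosomal protein lists, the pathway lists and the cytosolic ribosomal proteins, one point per gene. Medians run from -0.65 in the small subunit to -0.23 in mitochondrial transcription, and every list has most of its points below 0; with libraries scaled to the same sum, 4 of the 8 mitochondrial transcription genes lie below 0.

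Promoters of 66 members were found in the RefSeq table, which spans 250 bases before to 50 bases after each start. On both strands, 19 of them (28.8%) held the YY1 letters AAGATGGC, against 5.85% of the promoters of all tested genes and 3.03% of all 27305 promoters. The ETS letters CCGGAAG lay in 27 (40.9%), against 20.5% of tested-gene promoters and 10.7% of all. These 2 motifs were thus more frequent among members than among tested genes, while the other 3 were close to the tested genes or below them. The NRF1 letters CGCANGCG lay in 13 (19.7%), against 19.8% of tested-gene promoters and 10.6% of all promoters. The E-box CACGTG lay in 7 (10.6%), against 10.5% and 7.43%. CCAAT lay in 20 (30.3%), against 37.2% and 35.7%. None of the motif letters contains another.

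The place of the matches differed by motif. Of 20 YY1 matches 14 lay after the start, with a median first base at 9, while 27 of 35 ETS matches lay before it, with a median at -22. The median log2 fold change was -0.58 in members with a YY1 match and -0.57 in those without, and -0.47 in members with an ETS match and -0.58 in those without. It was -0.40 in the 7 members with an E-box, -0.49 in the 13 with an NRF1 match and -0.51 in the 20 with a CCAAT box, against -0.59 without in each case. For 4 of the 5 motifs the members with a match were thus less far below the control, by medians that were not tested. No match was found in 15 promoters, 1 kind of motif in 26, and 2 or more kinds in the others.

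In the same RefSeq annotation, 21 of these 66 members had a gene starting on the opposite strand within 1000 bases upstream, a look-up made after the values were seen. Of 14 such neighbours that were tested and are not members, 8 were called lower (57.1%, against 41.8% of all tested genes), 3 higher and 3 not called. The neighbours' median log2 fold change was -0.16, against -0.53 for the members beside them. MRPS12, the decoding-site protein of the small subunit, and SARS2, the mitochondrial seryl-tRNA synthetase gene, start 181 bases apart and had log2 fold changes of -0.86 and -0.88. MRPS18B (-0.87) lay beside PPP1R10, a phosphatase regulatory subunit gene, which rose, with 28.3 and 28.4 FPKM in the romidepsin libraries, against 19.9 FPKM in the control. The pair with the starts closest to each other among tested neighbours was MRPL27 (-0.96) and EME1, a gene of DNA repair, whose change of 0.02 was not called (limma, adjusted p = 0.748); with the libraries scaled to the same sum EME1 was called higher, at 0.23.

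The reverse order was seen at MRPL49, which was not called, while its neighbour FAU, a cytosolic ribosomal protein gene, had 885 and 819 FPKM in the romidepsin libraries, against 1245 FPKM in the control, and fell by 0.55. MRPL40 (0.18) lay beside HIRA, a histone chaperone gene, which fell by 0.17 (0.06 and not called with the libraries scaled to the same sum). MRPL46 and MRPS11, which start 320 bases apart, are both members and fell, with log2 fold changes of -0.91 and -0.43. Starts within 1000 bases of each other thus went with alike changes in some pairs and with opposite ones in others. Of the opposite pairs named above, MRPS18B and PPP1R10 start 597 bases apart, and MRPL40 and HIRA 812 bases apart. A closer opposite pair was MRPL30 (-0.24) and MITD1 (0.25), which start 126 bases apart. With the libraries scaled to the same sum, MRPL30 was at -0.01 and not called. No source used here says whether counting used the strand, and reads where such genes overlap could therefore not be told apart.

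**Figure D5:**
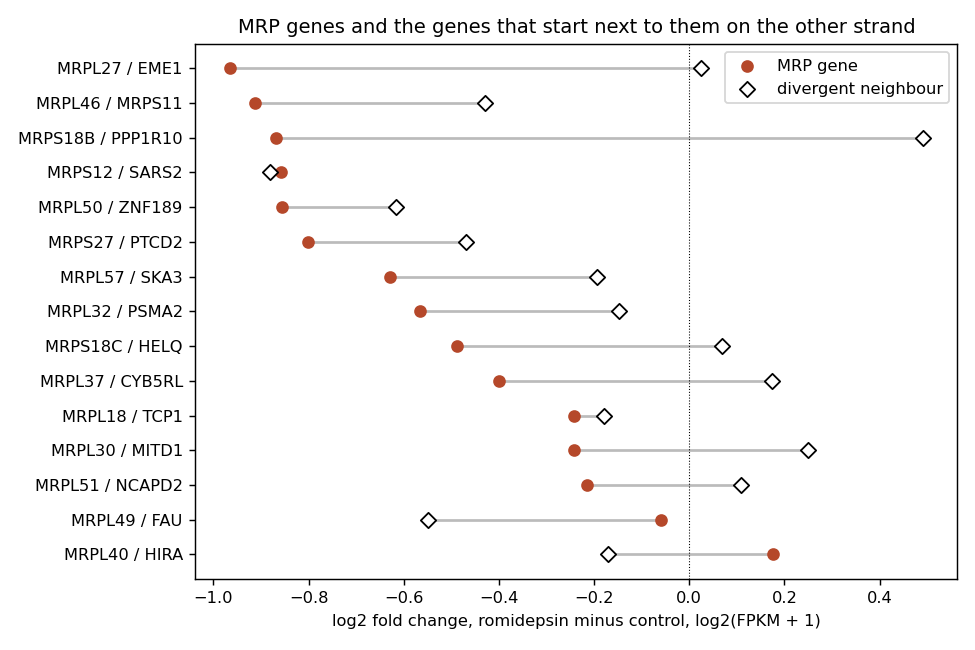
Log2 fold change of members and of the genes that start within 1000 bases upstream on the opposite strand, one row per pair. MRPS12 and SARS2 lie side by side at -0.86 and -0.88, while PPP1R10 lies at 0.49 beside MRPS18B at -0.87.

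Rows that join a member's name with another gene's were not members. MRPS24, joined with URGCP, had 138 and 138 FPKM in the romidepsin libraries, against 217 FPKM in the control, and fell by 0.64. MRPS6, joined with SLC5A3, had 88.9 and 89.5 FPKM in the romidepsin libraries, against 76.5 FPKM in the control, and rose by 0.22. MRPL53, joined with CCDC142, had 102 and 97.0 FPKM in the romidepsin libraries, against 105 FPKM in the control, and was not called (limma, adjusted p = 0.134); this row was called higher with the libraries scaled to the same sum (0.16) and after quantile normalization (0.18). What part of each joined value belongs to the ribosomal protein gene cannot be told.

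The summed FPKM of all rows was 668773 and 657213 in the romidepsin libraries, against 790922 in the control. By the steps between low values, the control's depth as the authors' scaling used it was 0.854 and 0.862 times theirs. These estimates rest on 98 of 359 and 73 of 390 rows compared, and need not be the depth of sequencing. Scaling was to equal sums of the named genes, which were 520552 and 517923 FPKM in the romidepsin libraries, against 613768 FPKM in the control. It put the all-gene median at 0.16, with 65.2% of the calls being higher (45.3% as deposited). The members' medians stayed 0.47 (large) and 0.59 (small) below that of all genes. Under that scaling 57 members were called lower and 7 higher, and the calls of 2 members reversed: MRPL13 and MRPS18A, called lower as deposited, were called higher at 0.14 and 0.10. The others called higher were MRPL40, MRPL52 and the members not called as deposited, MRPL10, MRPL49 and MRPS14. All 8 myeloid markers reached 1 FPKM in every library, with sums of 4194 and 4138 FPKM in the romidepsin libraries against 7477 FPKM in the control, whereas no T cell, B cell, erythroid, epithelial or fibroblast marker did. The summed fibroblast markers were 3.79 and 3.79 FPKM in the romidepsin libraries against 0.0525 FPKM in the control, from COL1A1 and DCN, with COL1A2 and COL3A1 at 0. Of the myeloid markers, CD33, MPO, CTSG, ELANE, SPI1 and LYZ were lower in both romidepsin libraries, while CEBPA and ITGAM were higher. ITGAM, the surface integrin of mature myeloid cells, had 20.6 and 21.3 FPKM in the romidepsin libraries, against 1.53 FPKM in the control. The part of these marker changes in the members' change was not tested. In these bulk libraries fewer cells with a transcript and less of it per cell cannot be told apart.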

How the data were processed

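Messenger RNA was sequenced from 2 romidepsin libraries and 1 control library. The authors deposited FPKM values, 1 table of 28837 rows per library, per the file headers. The submitters' processing notes name the build hg19 and the tools TopHat, Cufflinks and Cuffdiff, with no version; settings, strand and annotation: not given in the sources used here. Rows without a name (1770; 22.1% and 21.1% of summed FPKM in the romidepsin libraries, 22.3% in the control) and 27 named by a bare number were left out. Rows of 1 symbol were summed. Genes reaching 1 FPKM in at least 1 library were tested on log2(FPKM + 1) with limma 3.58.1 (R 4.3.3; eBayes with trend), Benjamini-Hochberg over 11708 genes; the 1 residual degree of freedom comes from the pair, and the lone control is assumed to vary alike. The script was checked on simulated data, where the control was given the spread of the romidepsin pair. That check therefore cannot bear on the spread of the real control. Promoters came from RefSeq (GRCh38.p14), whose build differs from the authors', and motif shares carry no test. The members, lists and tests were chosen with earlier results of these data known. Named genes were, per subunit, the 6 lowest and 4 highest changes and the 3 highest control levels, the MRPS18 family, MRPL12, disease genes, 2-fold members, those called higher, and the 3 greatest changes per list. Exceptions, chosen after their values were seen, are neighbours, joined rows, MRPL10 with its partner, DAP3, MPV17L2, MTRF1L, MTFMT, the genes of promoter factors and members at the ends of a range. Alternatives were scalings, pseudocount, filters, row handling, subunit by the protein's place and each romidepsin library left out.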

Additional observations from a re-analysis of the deposited data

How the results depend on the processing

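No paired analysis was possible because the control has no replicate number and stands alone. Members called lower had the same direction under each pseudocount, filter and left-out library, but not under each scaling. With the libraries scaled to the same sum, 3061 of all genes were called lower, 7 members higher and 1 member was 2-fold lower; the medians were -0.30 (large), -0.42 (small) and -0.34 (all), and the log2 ratios of the sums -0.32 (large) and -0.43 (small). With the median ratio the medians were -0.44, -0.56 and -0.48 and the log2 ratios of the sums -0.46 and -0.57. After quantile normalization 4 members were called higher and 2 were 2-fold lower, with medians of -0.34, -0.46 and -0.36. The median of all genes turned positive at 0.165 (same sum), 0.0409 (median ratio) and 0.0163 (no filter). Members called lower as deposited that turned positive with the same sum were MRPL41 (0.0130), MRPL51 (0.0244), MRPL13 (0.136), MRPS36 (0.0411), MRPS31 (0.0810) and MRPS18A (0.104), of which MRPL13 and MRPS18A were then called higher, and after quantile normalization MRPL14 (0.00898), MRPL18 (0.00626), MRPL41 (0.0421), MRPL51 (0.0728), MRPL13 (0.152, called higher) and MRPS18A (0.04999). MRPL49 and MRPS14, not called as deposited, turned positive at 0.171 and 0.157 (same sum, called higher), 0.0383 and 0.0218 (median ratio) and 0.0323 and 0.0611 (quantile). The cause was not tested. Without a filter 1 member was called higher, and without limma's trend 0 were. The large subunit median was -0.55 with a pseudocount of 0.1 and -0.53 with symbols in 1 row only. With MRPS30 and MRPS18A placed by their protein and MRPS36 left out, the log2 ratio of the small sum was -0.70 and the change of the large to small ratio 0.14. Leaving out each romidepsin library gave large subunit medians of -0.53 and -0.53, medians of all members from -0.56 to -0.54, and a large minus small difference of 0.10 to 0.17; with 1 library against 1 there is no test. The lone control limits every comparison, since its own spread cannot be measured, and FPKM carry no count, so no counting interval is given.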
